A study of Mus musculus with 6 samples.

Results

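The miR-29 family and its passenger arms were followed among the short RNAs bound to Argonaute (Ago) proteins in mouse brain. Members were the reads that the deposited annotation assigned to 1 of 7 mature miRNAs, namely mmu-miR-29a-3p, mmu-miR-29b-3p, mmu-miR-29c-3p, mmu-miR-29a-5p, mmu-miR-29b-1-5p, mmu-miR-29b-2-5p and mmu-miR-29c-5p (the species prefix mmu is left out from here on). They made up 656 of the 109434 unique sequences in the table, and 615 of them were above 0 in at least 1 of the 6 samples. The samples were 3 WT brains and 3 Tau tg brains. Per the study's methods, all mice were male, 3 months old and on the C57BL/6J background, and the Tau tg mice carried a fragment of human tau under the neuronal Thy 1.2 promoter. The sample labels named hippocampus, whereas the deposited protocol gave cortex and hippocampus combined. The genotype could not be checked, because the table holds no measurement of the transgene. In such bulk tissue, fewer cells of a type and less RNA per cell cannot be told apart.

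A miRNA hairpin is cut into a guide strand, which is usually kept by Ago, and a passenger strand, which is usually discarded. In the miR-29 family the guides are the 3p arms and the passengers are the 5p arms. The family is known to rise as the brain matures, to be abundant in astrocytes and mature neurons, and to lower the mRNAs of Bace1, the protease that starts amyloid beta production, of several pro-apoptotic BH3-only genes and of extracellular matrix genes. Targets are found mainly through the seed, the bases near the 5′ end of the miRNA. The 6mer seed covers positions 2 to 7, and its viability value is the percentage of cells surviving a short RNA with that seed, averaged over 3 murine cell lines.

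The mature sequences from RefSeq (build GRCm38.p6) are shown because the arms fall into groups by their seed, which is in capitals (positions 2 to 8).
miR-29a-3p: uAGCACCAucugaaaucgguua
miR-29b-3p: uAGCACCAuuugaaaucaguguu
miR-29c-3p: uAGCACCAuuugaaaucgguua
miR-29a-5p: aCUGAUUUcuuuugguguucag
miR-29b-1-5p: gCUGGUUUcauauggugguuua
miR-29b-2-5p: cUGGUUUCacaugguggcuuagauu
miR-29c-5p: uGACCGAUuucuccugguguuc
The 3 guide arms share the 7mer seed AGCACCA, which none of the other mature mouse miRNAs among the 1679 in RefSeq has. Their 6mer seed AGCACC occurs in 1 further miRNA, miR-3102-3p. With positions counted from 1 at the 5′ end, miR-29a-3p and miR-29c-3p differ by the single substitution C10U. Between miR-29b-3p and miR-29c-3p the first 22 positions differ by A18G, G21U and U22A. The 4 passenger arms have 4 different 6mer seeds, of which only UGGUUU of miR-29b-2-5p is shared with other miRNAs.

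The 4 hairpins lie in 2 pairs. Mir29a (chr6:31062660-31062747) and Mir29b-1 (chr6:31063023-31063093) are on the minus strand of GRCm38, and the 5′ end of Mir29b-1 overlaps an exon of the lincRNA Gm27019 in GENCODE M21. Mir29b-2 (chr1:195037040-195037120) and Mir29c (chr1:195037547-195037634) are on the plus strand within an exon of the noncoding transcript A330023F24Rik, opposite an exon of Cd46. The mature miR-29b-3p sequence is the same from both of its hairpins, so its reads cannot be assigned to a locus, whereas the 2 passenger arms of miR-29b can. No read matched more than 1 of the 7 members exactly.

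The authors scaled reads to 1 common library size, giving RPM. Whole reads could be recovered, and each sample held between 998248 (WT 3) and 6879551 (Tau tg 1) of them. A floor of 3 reads lay between 0.427 and 2.75 RPM. Adapter ligation differs between sequences and was not measured, so a ranking of arms by RPM is a ranking of sequenced reads.

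The guide arms were abundant in every brain. The most abundant member, miR-29a-3p, stood at 33894, 25484 and 26090 RPM in WT 1 to 3 and at 44186, 17628 and 28374 RPM in Tau tg 1 to 3. It ranked 7 of 782 miRNAs by mean RPM. The WT values all lay inside the range of the Tau tg values. Its log2 fold change, Tau tg over WT on log2(RPM + 1), was -0.01 ± 0.37 (SE), with a Benjamini-Hochberg adjusted limma p of 0.996.

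The guide arm made from both miR-29b hairpins, miR-29b-3p, stood at 13816, 18253 and 13836 RPM in WT brains and 24081, 9184 and 16753 RPM in Tau tg brains, and ranked 11. Its log2 fold change was 0.03 ± 0.36 (SE), with an adjusted limma p of 0.987. The least abundant guide, miR-29c-3p, stood at 4819, 5321 and 5437 RPM in WT brains and 8728, 3166 and 6612 RPM in Tau tg brains, and ranked 35. Its log2 fold change was 0.13 ± 0.36 (SE), with an adjusted limma p of 0.959. For all 3 guide arms Tau tg 1 was the highest and Tau tg 2 the lowest of the 6 samples, so the groups overlapped. Tau tg 1 was also the most deeply sequenced library, and the part of depth in these values was not tested. The median log2 fold change of the 689 miRNAs tested was 0.25, and under the other scalings of the libraries this median ran down to 0.01. The signs of these small changes depended on the scaling, since median-of-ratios scaling put miR-29b-3p at -0.13 and miR-29c-3p at -0.03.

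**Figure D1:**
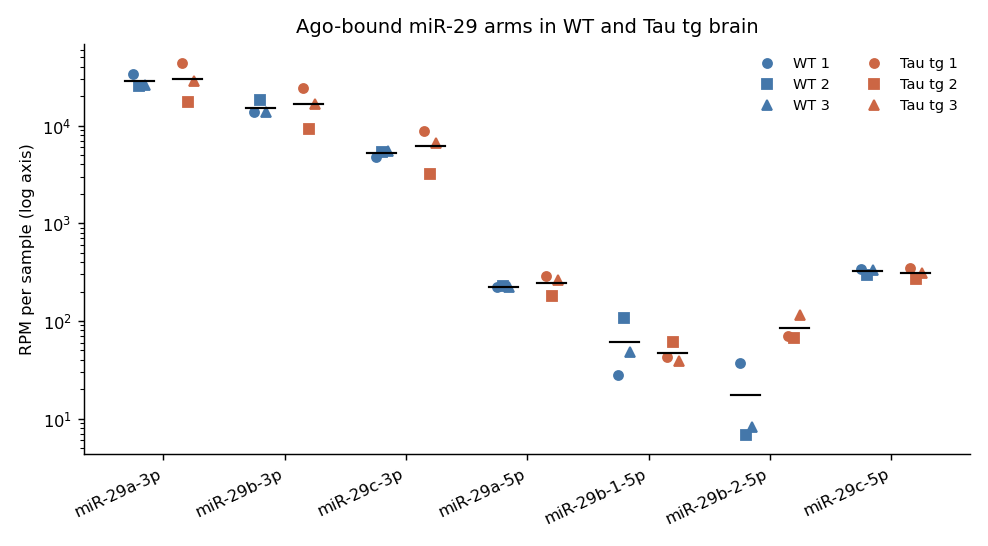
RPM of each miR-29 arm on a log axis, with 1 point per sample (blue, WT; orange, Tau tg; marker shape, replicate number) and a black line at each group mean. The 3 guide arms lie between 3166 and 44186 RPM and the 4 passenger arms between 6.78 and 352 RPM, and the groups are apart only for miR-29b-2-5p.

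Summed over the 3 guide arms, the family stood at 52528, 49058 and 45363 RPM in WT brains and 76995, 29978 and 51739 RPM in Tau tg brains. The sums thus spanned 2.57-fold among the 6 samples, with both extremes in the Tau tg group. The group means were 48983 ± 3583 and 52904 ± 23530 RPM (SD, n = 3 each), and the difference of 3921 RPM was smaller than the spread within Tau tg, and an exact permutation test (two-sided, as are all tests here) gave p = 0.8. With 3 samples against 3 the smallest p of such a test is 0.1. The adjusted p was 0.9 over the 10 measures of abundance and shares. The difference was -2437 RPM under median-of-ratios scaling and -8125 RPM without Tau tg 1. All 7 members together held between 3.61% (Tau tg 2) and 8.59% (Tau tg 1) of the RPM annotated as miRNA, and between 6.07% and 6.38% in the other 4 samples.

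Over the 6 samples the shares within the guide pool varied less than its size, but within WT they varied more. miR-29a-3p held 64.5%, 51.9% and 57.5% of the guide RPM in WT and 57.4%, 58.8% and 54.8% in Tau tg. miR-29b-3p held 26.3% to 37.2%, and miR-29c-3p held 9.17% to 12.8%. The order miR-29a-3p, miR-29b-3p, miR-29c-3p was found in 6 of 6 samples. On the log2 scale miR-29a-3p exceeded miR-29b-3p by 0.88 ± 0.26 (SD, n = 6) and miR-29b-3p exceeded miR-29c-3p by 1.50 ± 0.16 (SD, n = 6). Each of these differences had an exact sign-flip permutation p of 0.03125, the smallest that 6 samples allow, and an adjusted p of 0.0341 over 12 comparisons between members. These 12 comparisons were added after the data were seen, and the adjustment does not cover that choice. None of the shares differed between WT and Tau tg beyond the spread, with exact permutation p-values of 0.5 to 0.9.

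The passenger arms were detected at much lower levels. They summed to 630, 636 and 608 RPM in WT brains and 756, 573 and 728 RPM in Tau tg brains, so each sample held between 52.3 and 102 times more guide than passenger RPM. The difference of 61.0 RPM had an exact permutation p of 0.4. The passenger of miR-29a, miR-29a-5p, stood at 222, 230 and 223 RPM in WT brains and 292, 180 and 264 RPM in Tau tg brains. The WT samples lay close together and inside the Tau tg range, and the log2 fold change was 0.09 ± 0.41 (SE), with an adjusted limma p of 0.966. The most abundant passenger, miR-29c-5p, stood at 343, 292 and 329 RPM in WT brains and 352, 266 and 310 RPM in Tau tg brains. Its groups overlapped as well, and the log2 fold change was -0.06 ± 0.37 (SE), with an adjusted limma p of 0.976.

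The passenger was a larger part of the reads for miR-29c than for miR-29a. miR-29a-5p made up 0.651% to 1.01% of miR-29a reads, and miR-29c-5p made up 3.88% to 7.75% of miR-29c reads. The share was higher for miR-29c in 6 of 6 samples, by 4.78 ± 1.38 percentage points (SD, n = 6), with an exact sign-flip permutation p of 0.03125 (adjusted p, 0.0341). Among the 178 miRNA names with both arms measured and at least 100 RPM in sum, the minor arm held a median of 3.96%. The pooled minor arm share of miR-29a was 0.796% and that of miR-29c 5.26%, placing them 43 and 100 in ascending order. Neither share differed between WT and Tau tg beyond the spread, with exact permutation p-values of 0.5 and 0.7.

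The passenger arms of miR-29b come from different hairpins and were read separately. miR-29b-2-5p, from the chromosome 1 pair, stood at 37.0, 6.78 and 8.26 RPM in WT brains and 69.3, 66.9 and 116 RPM in Tau tg. These values rested on 79, 10 and 9 reads in WT and on 487, 80 and 284 reads in Tau tg. All Tau tg samples were above all WT samples, and WT 1 was well above the other WT samples. The group means were 17.3 ± 17.0 and 84.1 ± 27.8 RPM (SD, n = 3 each), which is 4.85-fold. The log2 fold change was 2.56 ± 0.83 (SE), or 2.31 above the median of all miRNAs, with an unadjusted limma p of 0.00717 and an adjusted limma p of 0.896. It was therefore not called after adjustment. Without Tau tg 3 the unadjusted limma p was 0.0508, and over all alternatives the adjusted p ran from 0.119 (without WT 1) to 0.929.

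miR-29b-1-5p, from the chromosome 6 pair, stood at 27.6, 107 and 47.7 RPM in WT brains and 43.0, 60.2 and 38.5 RPM in Tau tg. WT 1 was the lowest and WT 2 the highest sample, and the log2 fold change was -0.17 ± 0.71 (SE), with an adjusted limma p of 0.966. Without WT 2 it was 0.34. As a share of both miR-29b passengers, miR-29b-1-5p made up 42.8%, 94.0% and 85.2% in WT and 38.3%, 47.4% and 24.9% in Tau tg. WT 1 lay within the Tau tg range, and the other WT samples lay above it. The difference of -37.2 percentage points had an exact permutation p of 0.2 (adjusted p, 0.9), and it was -52.8 without WT 1 and -27.2 without WT 2.

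**Figure D2:**
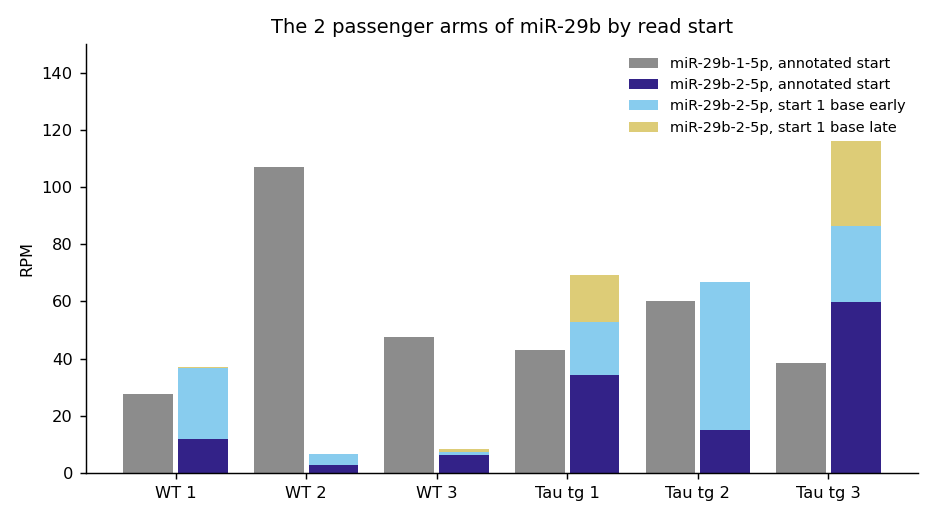
RPM of miR-29b-1-5p (grey bars) and miR-29b-2-5p (coloured bars stacked by read start) in each sample, without error bars because each bar is 1 sample. The miR-29b-2-5p bars of the Tau tg samples reach 66.9 to 116 RPM and those of the WT samples 6.78 to 37.0 RPM.

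Across the 7 members, 1 had an unadjusted limma p under 0.05 and it was higher in Tau tg. Among all 689 miRNAs tested, 3.63% had such a p and 2.03% had it with a higher level in Tau tg. Of those 25 miRNAs, 56.0% were higher in Tau tg, and this split was 40.0% under median-of-ratios scaling, 29.2% under quantile normalization and 21.4% with edgeR. It was 73.5% with limma without trend, and from 50.0% to 74.0% with 1 sample left out. Members whose groups did not overlap also numbered 1 of 7, whereas 8.71% of all miRNAs had no overlap and 6.53% had every Tau tg sample above every WT sample. After adjustment limma called 0 of the 7 members and 0 (0.0%) of the 689 miRNAs, edgeR called 0 and 0, and DESeq2 called 0 and 5. The standard errors of the guide arms, 0.36 to 0.37 on the log2 scale, limited the size of a change that 3 samples per group could show.

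**Figure D3:**
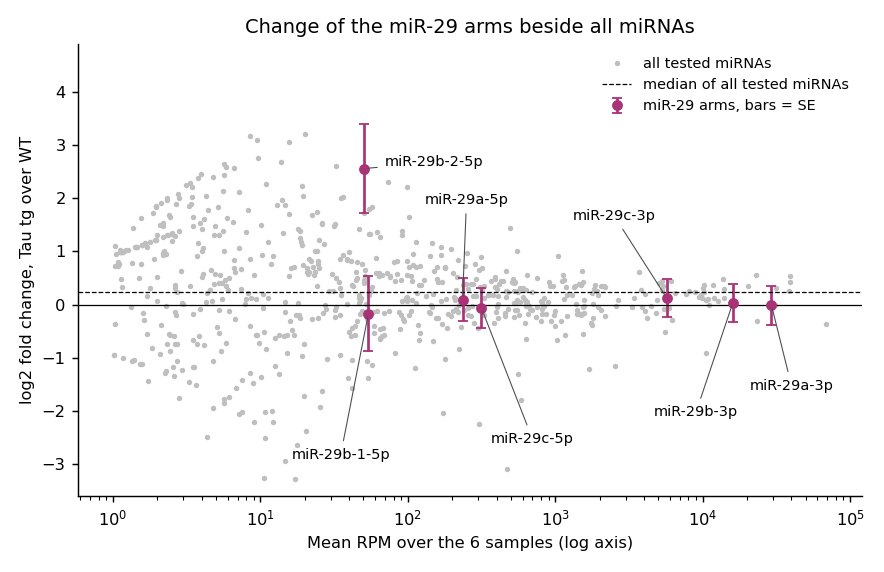
Log2 fold change, Tau tg over WT, against the mean RPM (log axis) for the 689 tested miRNAs (grey) and the miR-29 arms (purple, bars are the limma SE), with a dashed line at the median of all tested miRNAs, 0.25. The arms lie between -0.17 and 0.13, apart from miR-29b-2-5p at 2.56.

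The reads of each arm were next sorted by their start and end, since a shifted start changes the seed. The most abundant reads are shown with their 6mer seed in capitals, and the read of miR-29a-3p that starts 1 base early is shown because it carries another seed.
miR-29a-3p, most abundant read: uAGCACCaucugaaaucgguu
miR-29a-3p, start 1 base early: cUAGCACcaucugaaaucgguu
miR-29b-3p, most abundant read: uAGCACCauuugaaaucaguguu
miR-29c-3p, most abundant read: uAGCACCauuugaaaucgguu
miR-29b-1-5p, most abundant read: gCUGGUUucauauggugguuu
miR-29b-2-5p, most abundant read: gCUGGUUucacaugguggcuuag
miR-29c-5p, most abundant read: uGACCGAuuucuccugguguu
The early start gives the seed UAGCAC with a viability of 28.9%, against 51.3% for AGCACC. The base before the guide start is C in all 4 hairpins, so an additional C is templated in each. Some early reads held another base, such as a miR-29a-3p read with an A at 1.84 to 23.3 RPM in the 6 samples.

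The share of reads that started 1 base early differed between the guide arms. It was 9.73%, 9.85% and 8.35% in WT and 7.92%, 12.7% and 8.98% in Tau tg for miR-29a-3p. The share was 2.83% to 4.28% for miR-29b-3p and 0.318% to 1.45% for miR-29c-3p. The 3 ranges did not overlap, and the order was the same in 6 of 6 samples. miR-29a-3p exceeded miR-29b-3p by 6.14 ± 1.71 percentage points and miR-29c-3p by 8.76 ± 1.42 percentage points (SD, n = 6), each with an exact sign-flip permutation p of 0.03125 (adjusted p, 0.0341). miR-29a-3p thus differed from miR-29c-3p in this share although their mature sequences differ at 1 position only.

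Reads with a tail, a match to the hairpin followed by 1 to 3 bases that the hairpin does not hold, were ordered otherwise. They made up 4.51% to 7.90% of miR-29c-3p, 3.71% to 5.51% of miR-29a-3p and 2.49% to 4.12% of miR-29b-3p, in this order in 6 of 6 samples. Each of the 3 comparisons had an exact sign-flip permutation p of 0.03125 (adjusted p, 0.0341). A single added A was found more often than a single added U, except in miR-29c-3p of WT 2, at 1.89% to 3.39% of miR-29a-3p, 2.29% to 3.27% of miR-29b-3p and 1.41% to 5.69% of miR-29c-3p. A single added U was counted in 0.824% to 1.47% of miR-29a-3p, 0.962% to 1.86% of miR-29c-3p and 0.00743% to 0.0293% of miR-29b-3p. The hairpins Mir29a, Mir29c and Mir29b-2 hold a U after the annotated guide end, and an added U there was counted as templated. On miR-29b-3p reads of 21, 22 or 23 nt an added U always matched a hairpin, so it was not counted. The low share in miR-29b-3p is thus no measure of added U. On 21 nt reads of miR-29a-3p and miR-29c-3p an added A matched the hairpin and an added U did not. The shares of added A and U therefore cannot be compared between miR-29b-3p and the other guide arms. When templated bases past the annotated end were counted as tails too, miR-29c-3p stayed above both other arms in 6 of 6 samples. miR-29a-3p was then above miR-29b-3p in 5 of 6 samples only, by 0.952 ± 0.953 percentage points (SD, n = 6), with an exact sign-flip permutation p of 0.0625. This count still left out bases that were added to shortened reads and matched the hairpin. The place of miR-29b-3p in the order therefore depends in part on what could count as a tail.

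**Figure D4:**
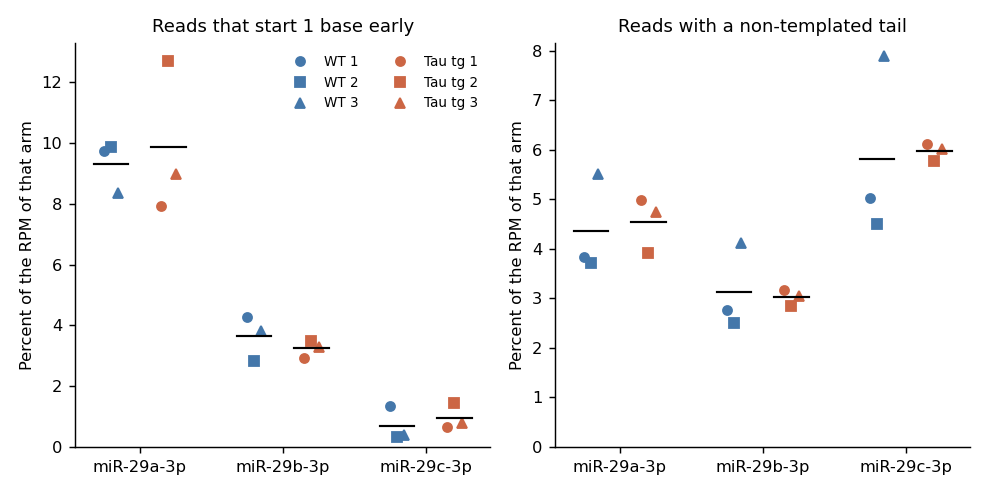
Percent of the RPM of each guide arm in reads that start 1 base early (left) and in reads with a non-templated tail (right), with 1 point per sample (blue, WT; orange, Tau tg) and a black line at each group mean. Early starts run from 7.92% to 12.7% for miR-29a-3p and reach at most 4.28% for miR-29b-3p and 1.45% for miR-29c-3p, whereas tails run from 4.51% to 7.90% for miR-29c-3p.

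Read lengths set miR-29b-3p apart. Reads of 21 and 22 nt made up medians of 45.5% and 38.7% of miR-29a-3p, and of 48.7% and 33.6% of miR-29c-3p. For miR-29b-3p the medians were 38.3% at 22 nt and 51.7% at 23 nt, and 3.89% at 21 nt. The last 6 bases of full-length miR-29b-3p, AGUGUU, are known as an element that directs human miR-29b to the nucleus. They were held by 52.3%, 61.8% and 43.8% of miR-29b-3p RPM in WT and by 54.4%, 60.4% and 47.3% in Tau tg, so the groups overlapped.

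**Figure D5:**
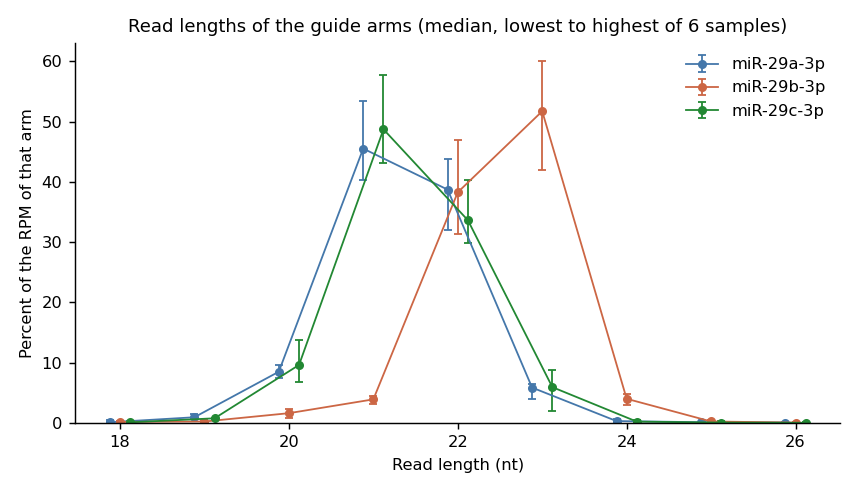
Percent of the RPM of each guide arm by read length in nt, as the median over the 6 samples with bars from the lowest to the highest sample. miR-29a-3p and miR-29c-3p peak at 21 nt and miR-29b-3p at 23 nt.

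None of the 16 isoform measures of the guide arms differed between WT and Tau tg beyond the spread, with exact permutation p-values of 0.3 to 1.0. The seed AGCACC was carried by 90.1%, 92.2% and 91.7% of guide RPM in WT and by 92.9%, 88.8% and 92.2% in Tau tg. Averaged over all family reads by RPM, the seed viability was 49.7% to 50.2% in the 6 samples, with an exact permutation p of 0.9 between the groups.

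How uniform the starts were differed between the passenger arms. miR-29b-1-5p started at its annotated base in 100% of its RPM in each sample, and miR-29a-5p did so in 89.3% to 100%. The miR-29b-1-5p values rested on only 59, 158 and 52 reads in WT and 302, 72 and 94 reads in Tau tg. Rare reads had been removed by the authors, so rarer starts of this arm could be missing. miR-29c-5p started at the annotated base in 44.7% to 78.2%, 1 base late in 16.9% to 48.4% and 2 bases late in 4.87% to 16.2%. Its seed is then ACCGAU or CCGAUU in place of GACCGA, with viabilities of 63.2% and 77.2% in place of 55.2%.

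For miR-29b-2-5p the early start was the rule in some samples and the annotated start in others. Starts 1 base early made up 67.1%, 60.0% and 11.1% of its RPM in WT and 26.9%, 77.5% and 22.9% in Tau tg. Such reads carry the seed CUGGUU of miR-29b-1-5p, with a viability of 73.8%, in place of UGGUUU, with 81.9%. Reads with the annotated start stood at 11.7, 2.71 and 6.42 RPM in WT brains and 34.2, 15.1 and 59.7 RPM in Tau tg. Those that started early stood at 24.8, 4.07 and 0.917 RPM in WT brains and 18.6, 51.9 and 26.6 RPM in Tau tg. The groups overlapped for the early start but not for the annotated start, nor for the arm as a whole, and the starts were not tested separately. WT 2 and WT 3 held only 10 and 9 reads of this arm, so their shares and levels by start are coarse. No read reached the annotated length of 25 nt in any sample, and reads of 23 nt held a median of 54.4%.

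Summed by 6mer seed over the whole table, 11 seeds were the main seed of a member or held at least 1% of its reads. Seed AGCACC stood at 48277, 45949 and 42285 RPM in WT brains and 72630, 27271 and 48531 RPM in Tau tg brains. Between 97.6% and 98.5% of this came from members, and the log2 fold change was 0.01 ± 0.38 (SE), with an adjusted limma p of 0.995. Seed UAGCAC stood at 3997, 3086 and 2744 RPM in WT brains and 4281, 2657 and 3164 RPM in Tau tg brains. Members supplied 97.7% to 99.2% of it, so nearly all of this less viable seed was the early start of the guide arms. Its log2 fold change was 0.03 ± 0.35 (SE), with an adjusted limma p of 0.992.

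With edgeR the log2 fold change was 0.58 for AGCACC and 0.43 for UAGCAC, neither past an unadjusted p of 0.05. Of the 11 seeds, limma gave 0 a p under 0.05, against 4.31% of the 3987 seeds tested, and none was called after adjustment with limma, edgeR or DESeq2, where limma called 0.125% of all seeds. In 1 of them, GACCGA, the main seed of miR-29c-5p, the groups did not overlap when all reads were summed, and 9.56% of all seeds were so. It stood at 221, 288 and 271 RPM in WT brains and 167, 135 and 216 RPM in Tau tg brains, with a limma p of 0.207. Members supplied 67.8% to 97.3% of it. The miR-29c-5p reads with this seed stood at 208, 228 and 183 RPM in WT brains and 162, 119 and 194 RPM in Tau tg brains. The groups overlapped for these reads, so the lack of overlap was not a trait of the member. Outside the members, 188 further sequences began with the same 8 bases as the guide arms without being annotated to them. They summed to between 306 and 713 RPM, or 0.908% to 1.08% of the guide total in each sample.

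Among single reads, 368 of the 656 passed the filter of a mean of at least 1 RPM. Of these, 8 had an unadjusted limma p under 0.05, against 2.23% of the 36070 sequences tested, and 29 of 368 had groups that did not overlap, against 3.6%. Every Tau tg sample was above every WT sample in 22 of these 29 and below in 7. How many of the 22 passed the filter only through Tau tg was not counted. The 8 comprised 4 reads of miR-29a-3p, 2 of miR-29c-3p, 1 of miR-29b-2-5p and 1 of miR-29c-5p, and 7 of them were higher in Tau tg, a direction and p that 1.44% of all sequences had. None was called after adjustment with limma, edgeR or DESeq2, where limma called 0.0277% of all sequences. Both miR-29c-3p reads averaged under 1 RPM in WT, and a miR-29a-3p read stood at 0 RPM in every WT brain. Such reads passed the filter only through Tau tg, so their direction was fixed by it. The count of 8 was 0 when a mean of at least 10 RPM was required and 19 with a pseudocount of 0.1. Both miR-29c-3p reads start 2 bases late, and they led to a count over all such reads of that arm after their values were seen. miR-29c-3p reads that start 2 bases late stood at 1.40, 1.36 and 5.50 RPM in WT brains and 26.9, 30.1 and 21.7 RPM in Tau tg. This start was picked through reads that passed the filter only through Tau tg, so the lack of overlap between the groups is no test. All reads with this start held at most 0.951% of the arm.

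The miRNAs with at least 1000 RPM that followed the summed guide arms most closely over the 6 samples were miR-551b-3p, miR-24-3p and let-7i-3p. Their Pearson r on log2(RPM + 1) were 0.97, 0.95 and 0.95, the highest of 98 compared, and the samples share their scaling to 1 total per library. miR-551b-3p stood at 2409, 2274 and 1809 RPM in WT brains and 3548, 789 and 2303 RPM in Tau tg brains, so its extremes were the same samples as those of the guide arms.

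Other miRNAs described as repressors of Bace1 were counted beside the guide arms. Of 13, none had a limma p under 0.05 (2 without WT 1), 7 had a log2 fold change above 0, and the median was 0.06, against 0.25 over all miRNAs tested. The most abundant were miR-124-3p at -0.36, miR-9-5p at 0.53 and miR-16-5p at 0.13 on the log2 scale, with adjusted limma p-values of 0.896, 0.896 and 0.954. For miR-9-5p every Tau tg sample was above every WT sample, as for 6.53% of all miRNAs, whereas the groups overlapped for the other 2. The study, which tested single reads at a p under 0.05, reported miR-9-5p as strongly enriched in the tau mice.

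Marker miRNAs of cell types were read in the same fit. The 6 neuronal ones summed to between 156191 and 173024 RPM, and 0 of them had a limma p under 0.05. The same count was 0 of 4 for oligodendrocytes, 0 of 5 for immune cells and 0 of 6 for vessels and red blood cells. Without WT 1 the count was 1 for neurons and 1 for oligodendrocytes. The 5 immune markers summed to between 444 and 598 RPM, far below the neuronal ones. Of 9 markers of ependyma, choroid plexus and other epithelia, 4 were lower in Tau tg at a limma p under 0.05, namely miR-200a-3p, miR-200b-3p, miR-200c-3p and miR-429-3p, which all belong to the miR-200 family of epithelia. The log2 fold changes of the choroid plexus and ependymal markers miR-204-5p, miR-34b-5p, miR-34c-5p and miR-449a-5p were above 0, at 0.61, 0.47, 0.92 and 0.82, and did not pass this p. The WT values of miR-449a-5p were 0.468, 25.8 and 43.1 RPM, and its mean was lower in Tau tg, at 20.7 against 23.1 RPM. The remaining marker, miR-141-3p, was at -0.66 and did not pass this p either. The count of 4 became 2 with limma without trend and 2 without Tau tg 3. miR-429-3p stood at 232, 1020 and 1281 RPM in WT brains and 205, 36.0 and 63.4 RPM in Tau tg, with an adjusted limma p of 0.188. The summed level of this list was 5887 to 15818 RPM in WT and 5166 to 13797 RPM in Tau tg, so the groups overlapped. WT 1 was the lowest WT sample for miR-200a-3p, miR-200b-3p and miR-429-3p and the highest WT sample for miR-29b-2-5p, whereas WT 2 was the lowest for miR-200c-3p. The part of these cell types in the miR-29b-2-5p values was not tested.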

How the data were processed

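Ago-bound short RNA was pulled down with a GW182-derived peptide, RNA of 19 to 35 nt was cut from a gel, and libraries were sequenced on an Illumina instrument. The authors compiled unique reads with the SPOROS pipeline, removed rare reads and artificial sequences, annotated reads with BLAST, and deposited RPM, read numbers scaled to 1 common library size. Trim Galore is named in the submitters' processing notes, with its version not given in the sources used here. The removal of rare reads leaves low values incomplete. The deposited seed viability score, a percentage that averages 3 murine cell lines, was taken unchanged, and a deposited total column was not used.

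Groups came from the sample titles. The labels do not state whether the WT samples were separate mice, but the study's methods give 3 mice per group. A legend of the study gives more samples per group. The p-values measure the spread between these samples. Each of the RPM values was a whole multiple of 1 read within a tolerance of 0.1 reads in 100% of cases, and recovered reads were used for edgeR and DESeq2. Floors cover counting error only, because PCR duplicates cannot be recognised.

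Rows were summed by the deposited miRNA name or 6mer seed. miRNAs, seeds and sequences averaging at least 1 RPM were tested with limma 3.58.1 (trend) on log2(RPM + 1), with Benjamini-Hochberg adjustment over all of them. This scale understates the change of low rows. Single values were compared by exact two-sided permutation over 20 assignments. Members were compared with each other within samples by exact sign-flip permutation over 64 sign patterns, a test added after seeing the data. With 1 sample left out it can no longer pass 0.05. Reads were aligned without gaps to RefSeq hairpins, with tails of at most 3 nt.

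The alternatives were edgeR 4.0.16, DESeq2 1.42.0, limma without trend, quantile normalization, median-of-ratios scaling, pseudocounts of 0.1 and 5, dropping the filter or raising it to 10 RPM, a replicate block, and the omission of each sample in turn. For shares, reads of 19 to 25 nt, exact hairpin matches and rows of at least 1 RPM were tried, and counting templated extensions as tails was added after seeing the data. The models were tested on simulated data. Software was R 4.3.3 and Python 3.11.15 with Matplotlib 3.10.9, pandas 2.3.3 and NumPy 2.4.6.

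The members and the lists were chosen with earlier results of these data known. The named items were all 7 members, their most abundant reads, their main seeds and those with at least 1% of an arm, the 3 miRNAs most like the guide sum, and the most abundant listed miRNAs with any at p under 0.05.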

Additional observations from a re-analysis of the deposited data

How the results depend on the processing

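The level of miR-29b-2-5p was higher in Tau tg under all 16 alternatives of the miRNA fit, with log2 fold changes of 2.12 to 3.28. Its unadjusted p passed 0.05 in each of them but 1, the fit without Tau tg 3, which left 0 members called, so that this count ran from 0 to 1 with 1 sample left out. The other members had small changes whose sign varied. Median-of-ratios scaling gave -0.13 for miR-29b-3p, -0.031 for miR-29c-3p and -0.067 for miR-29a-5p, and it put the summed guide arms at -2437 RPM and the summed passenger arms at -16.1 RPM. Quantile normalization gave -0.052 for miR-29a-5p and -0.044 for the seed UAGCAC. edgeR gave -0.022 for miR-29b-3p and -0.011 for miR-29a-5p, and DESeq2 gave -0.063 and -0.048. The difference in mean seed viability was 0.00042 percentage points with exact hairpin matches only, and that in the share of seed AGCACC was 0.00044 percentage points with rows of at least 1 RPM.

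With each sample left out in turn, log2 fold changes ran from -0.34 to 0.33 for miR-29a-3p, -0.29 to 0.41 for miR-29b-3p, -0.18 to 0.55 for miR-29c-3p, -0.045 to 0.30 for miR-29a-5p, -0.62 to 0.34 for miR-29b-1-5p and -0.16 to 0.041 for miR-29c-5p. They ran from -0.32 to 0.39 for the seed AGCACC and from -0.16 to 0.19 for UAGCAC. The seeds moved most with all samples kept, to 0.27 and 0.29 under median-of-ratios scaling, 0.58 and 0.43 with edgeR, and 0.46 and 0.34 with DESeq2. The difference in summed guide RPM ran from -8125 (without Tau tg 1) to 15384 (without Tau tg 2), that in seed viability from -0.136 to 0.134 percentage points and that in the share of AGCACC from -0.851 to 1.19 percentage points. The ranges of the 3 guide arms and of their sum had Tau tg 1 and Tau tg 2 at their ends, and the cause was not tested.

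The number of miR-29 reads with p under 0.05 was 8 in the fit reported, 19 with a pseudocount of 0.1, 3 with a pseudocount of 5, 0 with a mean of at least 10 RPM, 3 without trend, 2 with edgeR, 4 with DESeq2, and 5 to 13 with 1 sample left out. Among all sequences it was 803, and 429 with a pseudocount of 5, 167 with a mean of at least 10 RPM, 2564 with edgeR, 3344 with DESeq2, and 531 (without Tau tg 2) to 942 with 1 sample left out. Counts with p under 0.05 ran from 105 (without Tau tg 1) to 232 for seeds and from 18 to 50 (without WT 1) for miRNAs, against 172 and 25. After adjustment DESeq2 called 5 miRNAs, and 0 to 1 were called with 1 sample left out. Adjusted calls among miRNAs, seeds or reads of the family numbered 0 in each fit.

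Same-numbered WT and Tau tg samples deviated together with correlations of -0.002, -0.069 and 0.041, so they share only a number. With a replicate block, 22 miRNAs and 11 miR-29 reads were under the threshold of 0.05, and the unadjusted limma p of miR-29b-2-5p was 0.0153. No call of a member changed. The differences between guide arms in early starts and tails kept their direction with each sample left out, with rows of at least 1 RPM and, for tails, with templated extensions counted in, where the difference between miR-29a-3p and miR-29b-3p lost its call. Shallow libraries limit the passenger arms most, since miR-29b-2-5p rested on 9 reads in WT 3.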
